A study of Mus musculus with 10 samples.

Results

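These results describe spots of intermediate pericentral to periportal score in 3 mouse liver sections measured with 10x Genomics Visium, a slide whose barcoded spots capture polyadenylated RNA and count it as unique molecular identifiers (UMIs). The score of a spot was log2 of the summed UMIs of Cyp2e1, Cyp1a2 and Oat over those of Cyp2f2, Hal and Hsd17b13, with 0.5 added to each sum. Spots over tissue with at least 2000 UMIs were ranked by score within each section and cut into 5 bins, and the middle bin (40th to 60th percentile) was set against the lowest bin, which is the periportal end, and the highest bin, which is the pericentral end. The middle bin held 668 spots of NEJ638, 474 of NEJ654 and 479 of NEJ677, in all 1621 of the 8111 spots that passed in these sections and of the 17281 spots called over tissue in the 6 sections with such a call. Members among the genes were chosen by these same levels: a gene counted when its CPM in the middle was higher, or lower, than at both ends in all 3 sections. The differences between the middle and the ends are therefore a description without a test.

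The series holds 10 Visium sections of 7 mouse tissues, studied to describe liver tumours driven by human MYC. All samples carry the label hepatoblastoma, although the protocol speaks of normal liver too and assigns no section to either. The study names NEJ634, NEJ687, NEJ723 and NEJ146 as tumours and counts 3 healthy livers. By elimination these livers are NEJ638, NEJ654 and NEJ677, although no label says so. NEJ638, NEJ654 and NEJ677 are 1 section each, of 1 animal each as far as the labels show. The tumour model, ABC-Myc, carries Alb-Cre, a Cre driven by albumin regulatory sequence and thus active in hepatocytes, and CAG-MYC, a human MYC gene that Cre switches on. The control animals of the study were littermates with Alb-Cre alone, CAG-MYC alone or neither, on a C57BL/6J background. Which of these genotypes, what age and what treatment the 3 sections had is not given in the sources used here.

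The liver lobule runs from the portal tracts, where artery, portal vein and bile duct enter, to a central vein. Periportal hepatocytes make glucose and urea, pericentral hepatocytes carry out drug oxidation and glutamine synthesis, and hepatocytes between them are known for hepcidin, the hormone that limits iron uptake, for Igfbp2, which binds insulin-like growth factors, and for cyclin D1. The vessel walls and most fibrous tissue of the liver lie at both ends of this axis. A spot covers several cells, so fewer cells of a type and less RNA per cell cannot be told apart in any value below.

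The label mid-lobular rests on Hamp, and Hamp did not bear it out, since it was above both ends of the score in NEJ654 only. The marker list for mid-lobular hepatocytes, chosen with earlier results known, held Hamp, Hamp2, Igfbp2 and Mup3. Of these 4 genes 0 were higher in the middle than at both ends in all 3 sections, beside 4.38% of all genes, so the count says little by itself. Ccnd1, which encodes cyclin D1 and stood in another list, was higher in all 3 sections. The spots are therefore called the middle bin by score, and no hepatocyte type is claimed for them.

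Hamp (GRCm38, chr7:30942368-30944032, minus strand) encodes hepcidin, and Hamp2 (chr7:30922372-30924681, minus strand) is a close copy of it. Promoter sequences are shown for this pair because their levels followed different courses along the score in NEJ677, and for Hmgcs1 and Mt1 because each leads a group of members described further on. All are RefSeq windows of GRCm38.p6 from 250 bases before to 50 after the gene's start, written 5′ to 3′ on the gene's strand. Capitals mark exact matches on either strand to the core of the BMP response element GGCGCC or the STAT palindrome TTCNNNGAA in Hamp and Hamp2, to the sterol regulatory element TCACNCCAC in Hmgcs1, and to the metal response element core TGCNCNC in Mt1. The windows are chr7:30943980-30944279 on the minus strand for Hamp, chr7:30924132-30924431 on the minus strand for Hamp2, chr13:119690101-119690400 on the plus strand for Hmgcs1 and chr8:94178839-94179138 on the plus strand for Mt1.
Hamp: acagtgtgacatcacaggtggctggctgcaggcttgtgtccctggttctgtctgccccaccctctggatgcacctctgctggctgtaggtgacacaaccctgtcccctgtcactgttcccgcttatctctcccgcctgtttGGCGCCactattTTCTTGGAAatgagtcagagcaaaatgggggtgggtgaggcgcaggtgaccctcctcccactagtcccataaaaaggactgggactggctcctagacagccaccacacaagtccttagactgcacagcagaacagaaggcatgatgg
Hamp2: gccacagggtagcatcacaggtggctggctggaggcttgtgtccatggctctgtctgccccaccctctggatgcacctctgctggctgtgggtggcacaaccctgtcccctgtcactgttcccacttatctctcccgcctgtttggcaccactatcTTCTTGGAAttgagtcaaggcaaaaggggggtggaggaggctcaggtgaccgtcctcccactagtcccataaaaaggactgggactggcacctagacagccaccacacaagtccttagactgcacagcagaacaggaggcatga
Hmgcs1: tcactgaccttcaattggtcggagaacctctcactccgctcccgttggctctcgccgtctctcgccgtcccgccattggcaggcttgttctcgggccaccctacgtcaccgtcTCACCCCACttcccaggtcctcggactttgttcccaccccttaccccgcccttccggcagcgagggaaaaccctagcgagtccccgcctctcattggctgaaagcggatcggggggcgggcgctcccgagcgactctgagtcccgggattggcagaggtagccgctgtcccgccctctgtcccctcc
Mt1: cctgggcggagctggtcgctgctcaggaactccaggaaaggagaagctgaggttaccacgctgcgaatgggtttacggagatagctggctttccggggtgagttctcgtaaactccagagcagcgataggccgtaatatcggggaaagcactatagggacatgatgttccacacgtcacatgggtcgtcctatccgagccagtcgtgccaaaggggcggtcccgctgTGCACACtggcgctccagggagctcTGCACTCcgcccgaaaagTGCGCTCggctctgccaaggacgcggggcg
The Hamp and Hamp2 windows were identical at 276 of 303 aligned positions (91.1%). The Hamp2 gene of the GENCODE annotation, whose coordinates are given above, starts upstream of the RefSeq start on which the window is set, so that window lies inside the GENCODE gene. Both held 1 STAT palindrome, and only the Hamp window held GGCGCC. The transcripts themselves were not compared, and as reads of close gene copies can be split in counting, the separate levels of Hamp and Hamp2 are uncertain. GGCGCC occurred in 11.9% of the 32851 promoter windows and TTCNNNGAA in 8.3%, TCACNCCAC in 1.24%, and TGCNCNC in 51.0%, with 3 or more matches, as in Mt1, in 7.1%. No matches of different motifs overlapped in the windows shown, and a match is a description of the sequence only.

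Hamp was low in NEJ638 and high in the other sections. Levels are UMIs summed over the spots of a bin per 1000000 UMIs (CPM), listed from the lowest to the highest bin. They were 15.0, 11.9, 9.70, 7.75 and 5.13 CPM in NEJ638, where the level declined along the whole score. They were 1179, 1264, 1288, 1041 and 599 CPM in NEJ654 and 1404, 1440, 1384, 992 and 512 CPM in NEJ677, with a plateau over the first 3 bins and a drop toward the pericentral end. On the log2(CPM + 1) scale the middle minus the highest bin was 1.11 ± 0.31 (SD, n = 3 sections), while the middle minus the lowest bin was -0.58, 0.13 and -0.021 in NEJ638, NEJ654 and NEJ677. The 91 Hamp UMIs of the NEJ638 middle bin give an exact Poisson 95% interval of 7.81 to 11.9 CPM, and such intervals cover counting error only. Across whole sections, the tumours NEJ634, NEJ687 and NEJ723 had 1540, 821 and 430 CPM of Hamp, so the 9.60 CPM of NEJ638 was the lowest level among these 6 sections.

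Hamp2 had its highest level in the middle bin of NEJ654 and NEJ677 but not of NEJ638. It measured 58.9, 45.1, 47.1, 32.9 and 18.6 CPM in NEJ638, 1953, 2279, 2312, 1842 and 1032 CPM in NEJ654, and 549, 719.7, 854, 602 and 293 CPM in NEJ677. The middle was 1.56-fold above the lowest bin in NEJ677, where Hamp was level between these bins (0.986-fold). Igfbp2 was above both ends in NEJ638 and NEJ677, and its middle level in NEJ654, 924 CPM, lay below the 980.0 CPM of the lowest bin. Mup3, a major urinary protein, declined along the whole score in each section, from 589 to 208 CPM in NEJ638, from 5059 to 2484 CPM in NEJ654 and from 13177 to 5247 CPM in NEJ677.

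Spots that the rule did not use gave a test of the side to which these genes lean. Bin 2 (20th to 40th percentile) and bin 4 (60th to 80th percentile) were compared with edgeR's quasi-likelihood test, with the section as a block. All 4 markers were higher in bin 2, that is on the periportal side of the middle. The log2 difference, bin 4 minus bin 2, was -0.48 ± 0.06 (SE) for Hamp (edgeR adjusted p = 0.000161), -0.36 ± 0.05 for Hamp2 (edgeR adjusted p = 0.000162), -0.38 ± 0.06 for Igfbp2 (edgeR adjusted p = 0.00108) and -0.61 ± 0.06 for Mup3 (edgeR adjusted p = 2.45e-05). Of 7105 genes tested, 687 (9.67%) passed an adjusted p of 0.05, 374 (5.26%) higher in bin 2 and 313 (4.41%) in bin 4, and these include the 6 score genes, which differ by construction. Without the section as a block the test passed 0 genes, and 162 had an unadjusted p under 0.05.

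**Figure D1:**
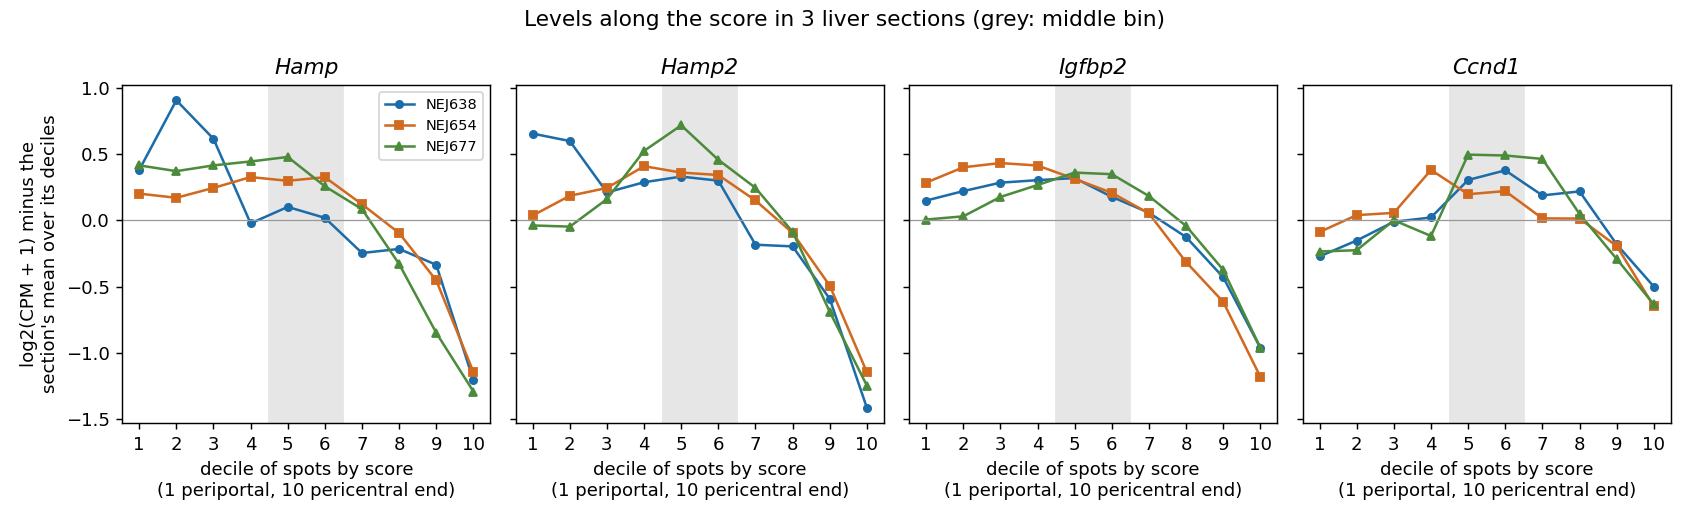
Levels of Hamp, Hamp2, Igfbp2 and Ccnd1 along the score. The x axis gives the deciles of a section's spots, from the periportal end (1) to the pericentral end (10), the y axis log2(CPM + 1) minus the mean of the section's 10 deciles, each line is 1 section, and the grey band is the middle bin. Hamp peaked in deciles 2, 4 and 5 of NEJ638, NEJ654 and NEJ677, and Ccnd1 in deciles 6, 4 and 5.

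The genes whose course was most like that of Hamp over the 30 deciles of the 3 sections, each section centred, were Hc (Pearson r = 0.951), Ass1 (0.946), Cps1, C4b and Ccl9 (each 0.939). Deciles of a section share its library, so r is a description and carries no p. Ass1 and Cps1 are urea cycle enzymes of periportal hepatocytes, and Hc and C4b are complement components. Ass1 declined along the score in each section, from 1887 to 812 CPM in NEJ638, from 2033 to 982 CPM in NEJ654 and from 1553 to 706 CPM in NEJ677.

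A mean level of 10 CPM or more was reached by 7105 genes, of which 311 (4.38%) were higher in the middle than at both ends in all 3 sections and 154 (2.17%) were lower. Without that minimum the numbers were 652 and 410 of 18678 genes with a UMI. The minimum is on the mean over all bins and sections. Most members lay near the limit of the rule. A gene without any trend can also meet the rule by the order of its bins, and how many did so was not tested. The smallest of a member's 6 differences (2 ends in 3 sections) had a median of 0.03 on the log2 scale in either direction, and 15 higher and 19 lower members had a smallest difference above 10%. Cnih4, Ndufa3 and 1810022K09Rik were the members nearest to the limit and Eif2s3y, Calr, Ints3 and Polr2m the nearest genes outside it, all with a limiting log2 difference that rounds to 0.00. Under TMM and DESeq2 size factors, which moved the middle against an end by at most 1.05-fold relative to total UMIs, the share of higher among all members was 52.4% and 51.7% in place of 66.9%. A stricter count asked that the exact Poisson 95% interval of the middle lie apart from those of both ends in all 3 sections. It held 3 higher genes (0.0422%), Ces1e, Cyp3a25 and Mt1, and 2 lower genes (0.0281%), Col3a1 and Col1a2. Of the higher genes Ces1e alone was left under TMM or DESeq2 size factors and with 3 bins in place of 5, and with spots thinned to 2000 UMIs none of these 5 genes was left. Cyp3a25 was also lost with other score genes, with the score from adjacent spots, with interior spots and with a narrower middle bin (the central 10% of spots). Mt1 was lost with the score from adjacent spots. Col1a2 was lost with other score genes, interior spots, 3 bins, the narrower middle bin and a minimum of 50 CPM.

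The extreme level of a gene also lay at an end bin in many cases, whatever the order of the other bins. The level was highest in the pericentral bin of the 3 compared bins in all sections for 1545 genes (21.7%) and highest in the periportal bin for 531 (7.47%). It was lowest in the periportal bin for 1574 (22.2%) and lowest in the pericentral bin for 719 (10.1%). Within single sections, 35% of genes in NEJ638, 28.5% in NEJ654 and 21% in NEJ677 were higher in the middle than at both ends, and 17.6%, 21.4% and 26.7% were lower.

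Ces1e (chr8:93201218-93229619, minus strand), a liver carboxylesterase that splits esters, was the clearest gene with a peak in the middle. It measured 67.7, 82.7, 101, 90.9 and 75.7 CPM from the lowest to the highest bin in NEJ638, 89.7, 106, 124, 118 and 87.9 CPM in NEJ654, and 115, 128, 144, 143 and 110.4 CPM in NEJ677. The middle was the highest of the 5 bins in each section, by 1.25-fold to 1.49-fold over the lowest and by 1.31-fold to 1.42-fold over the highest bin. On the log2 scale the differences were 0.45 ± 0.12 and 0.43 ± 0.06 (SD, n = 3), with 909 to 1012 UMIs of Ces1e in each middle bin. Bins 2 and 4 did not differ past the threshold (log2 difference 0.11 ± 0.05 (SE), edgeR adjusted p = 0.201). Of 12 carboxylesterases tested, a list drawn up after the values were seen, 2 met the rule (16.7%, against 4.38% of all genes). By edgeR 6 of the 12 were higher in bin 4 and 1 in bin 2, beside 4.41% and 5.26% of all genes, and the median difference of the 12, middle minus highest bin, was -0.067 on the log2 scale. The sum over the list was 7539, 7512 and 7431 CPM in the middle and 8196, 8059.7 and 7576 CPM in the highest bin, so the family as a whole did not peak in the middle. Ces1b was the other member, with middle levels of 129, 151 and 92.1 CPM, and related copies of this family may share reads.

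Cyp3a25, a drug-oxidising cytochrome P450, had a shallower peak of 0.17 ± 0.01 over the highest and 0.16 ± 0.07 over the lowest bin on the log2 scale (SD, n = 3). Its middle levels were 624, 489 and 399 CPM, and with thinned spots its smallest difference turned to -0.070. Mt1, a metallothionein that binds zinc and copper, measured 1296, 1406, 1375, 1185 and 926 CPM in NEJ638, 2429, 2864, 2834, 2680 and 2102 CPM in NEJ654, and 325, 379, 404, 359 and 231 CPM in NEJ677. Its middle bin was above both ends in each section, and bin 2 was as high or higher in NEJ638 and NEJ654. Bin 4 minus bin 2 was -0.18 ± 0.04 (SE, edgeR adjusted p = 0.0163). Mt2, the neighbouring metallothionein, met the rule as well, with 157, 438 and 29.5 CPM in the middle, but in NEJ638 its middle and lowest bins were both at 157 CPM, and under TMM or DESeq2 size factors it no longer met the rule. These were 2 of 8 metallothioneins and zinc transporters tested, again a list drawn up after the values were seen, against 4.38% of all genes.

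**Figure D2:**
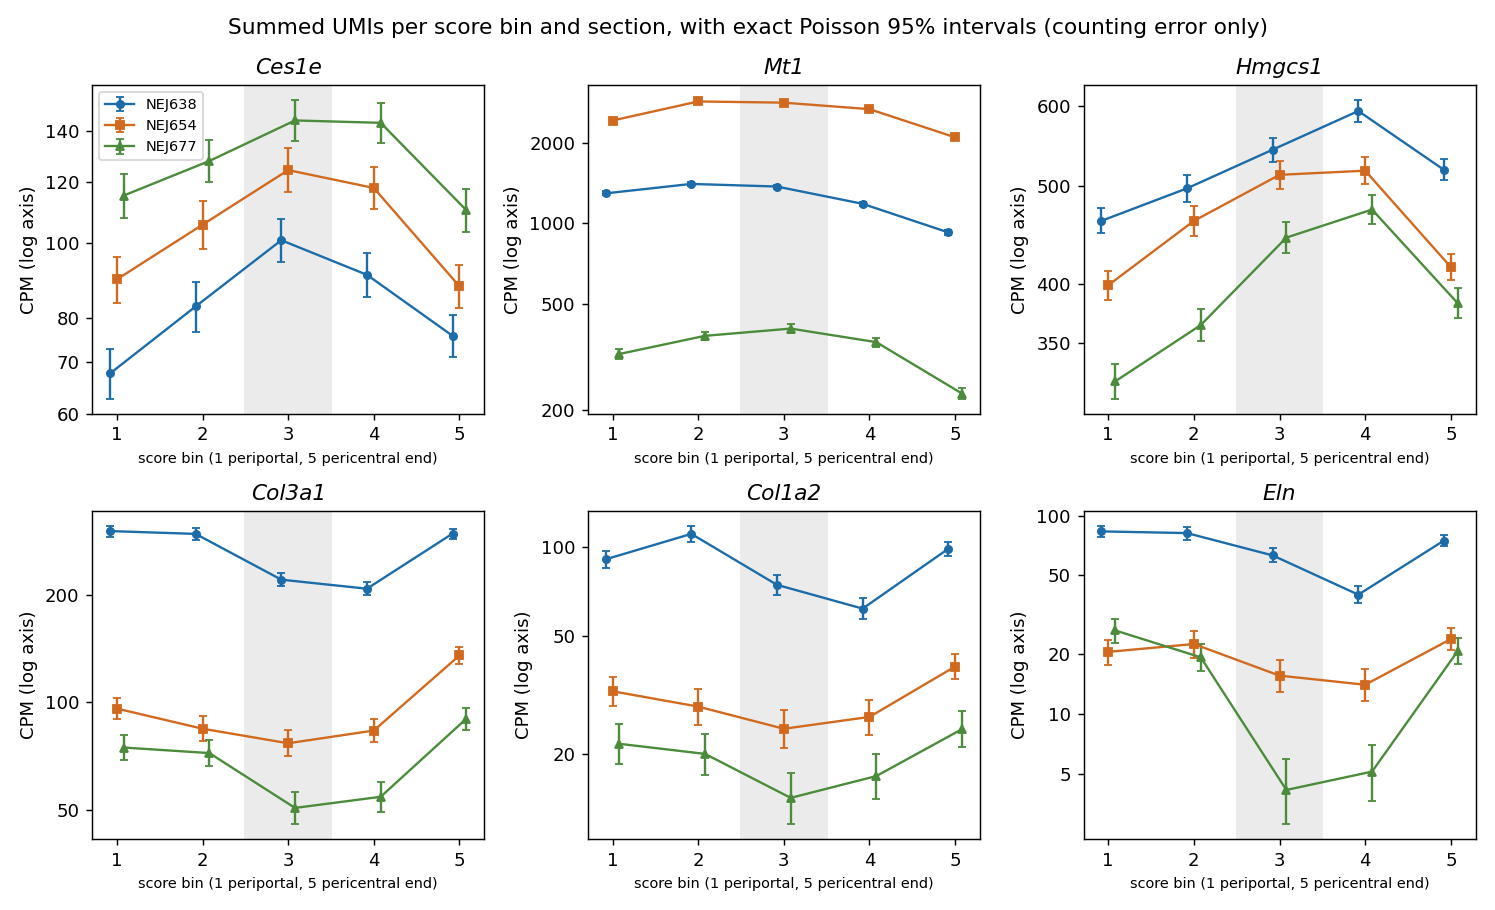
CPM (log axis) of 3 genes higher and 3 genes lower in the middle, by bin of spots from the periportal end (1) to the pericentral end (5). Points are sums over the spots of a bin, bars exact Poisson 95% intervals, lines the 3 sections, and the grey band the middle bin. Ces1e peaks in the middle in each section, Hmgcs1 in bin 4, and Col3a1 has its lowest level in the middle bin of NEJ654 and NEJ677 and in bin 4 of NEJ638.

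Ccnd1 (chr7:144929931-144939925, minus strand), cyclin D1, which drives cells from G1 into DNA synthesis, was higher in the middle than at both ends in each section. It measured 58.1, 68.1, 86.3, 78.2 and 53.1 CPM in NEJ638, 34.7, 41.6, 41.1, 35.7 and 26.1 CPM in NEJ654, and 26.6, 30.2, 44.7, 38.2 and 22.6 CPM in NEJ677. The middle was 1.18-fold to 1.68-fold above the lowest and 1.57-fold to 1.97-fold above the highest bin. In NEJ654 bin 2 was marginally higher than the middle. Between bins 2 and 4 the difference was 0.08 ± 0.09 (SE, edgeR adjusted p = 0.654). Of the 9 genes tested in the list of insulin-like growth factor binding and cyclin D1, Ccnd1 was the single member, beside 4.38% of all genes. By edgeR 4 of the 9 were higher in bin 2 and 1 in bin 4, beside 5.26% and 4.41% of all genes.

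Some genes of the dividing cell were higher in the middle than at both ends. Their list was drawn up after the values were seen, so the count is a description. Of 19 tested, 7 (36.8%) were higher, against 4.38% of all genes, and 0 were lower; under TMM or DESeq2 size factors 6 were higher, without Ube2c. Top2a, the topoisomerase that untangles chromosomes before division, measured 22.5 CPM in the middle, 15.0 in the lowest and 17.8 in the highest bin of NEJ638. In NEJ654 these levels were 9.17, 5.91 and 6.82 CPM, and in NEJ677 5.85, 2.79 and 3.20 CPM, the last from 41 UMIs in the middle. The smallest difference of Top2a, 0.32, turned to -0.16 with thinned spots and to -0.091 with the score from adjacent spots. It shrank to 0.074 with 3 bins in place of 5 and to 0.063 with the narrower middle bin. Mki67, a marker of cycling cells, was above both ends in the middle, by a small margin in NEJ638 (26.9 against 24.2 and 25.6 CPM) and by more in NEJ654 (13.01 against 8.97 and 8.24 CPM) and NEJ677 (6.99 against 2.66 and 3.20 CPM), though bin 4 was higher still in NEJ638 and NEJ654, at 28.3 and 14.4 CPM. Cdc20, Cenpa, Kpna2, Ube2c and Ccnd1 made up the rest, and 0 of the 19 passed the test between bins 2 and 4, beside 9.67% of all genes. In NEJ638 the middle barely exceeded the highest bin for Ube2c (33.4 against 33.1 CPM), Cdc20 (23.2 against 22.7 CPM) and Cenpa (34.9 against 32.7 CPM). An inner bin was higher still there: bin 4 for Ube2c (35.4 CPM), bin 2 for Cdc20 (23.3 CPM) and Cenpa (39.0 CPM). The margins of these genes over the highest bin were wider in NEJ654 and NEJ677. There the middle was the highest bin for Ube2c in both sections and for Cenpa in NEJ654. Cdc20 was higher still in bin 2 of NEJ654 (16.8 against 15.1 CPM) and in bin 4 of NEJ677 (7.17 against 5.71 CPM). Cenpa was higher still in bin 4 of NEJ677 (20.1 against 19.4 CPM). The 5 erythroid markers summed to 204, 290 and 236 CPM in the lowest, middle and highest bin of NEJ638, 116, 81.5 and 81.3 CPM in NEJ654, and 269, 280.3 and 180.2 CPM in NEJ677, so the middle was the highest of these 3 bins in NEJ638 and NEJ677. The part of these cells in the cell cycle values was not tested.

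Cholesterol synthesis held 5 higher members among 15 genes tested (33.3%, against 4.38% of all genes) and 0 lower. Hmgcs1 makes the precursor of mevalonate, Idi1 isomerises the isoprene unit, Lss closes the sterol ring and Srebf2 is the transcription factor of the pathway. Hmgcs1 measured 462, 498, 544, 594 and 519 CPM in NEJ638, 399, 462, 513, 518 and 416 CPM in NEJ654, and 320.4, 364, 445, 474 and 383 CPM in NEJ677. Its highest level was in bin 4 of each section, and bin 4 minus bin 2 was 0.23 ± 0.05 (SE, edgeR adjusted p = 0.00677). Idi1 was also highest in bin 4 of each section, with 267, 156 and 167 CPM in bin 4 and 260.2, 149 and 166 CPM in the middle bin (bin 4 minus bin 2 0.14 ± 0.05 (SE), edgeR adjusted p = 0.101). The middle differences of Lss and Srebf2 from an end were as small as 0.10 and 0.01 on the log2 scale, and under DESeq2 size factors 4 of the 15 genes met the rule. In all, 6 of the 15 genes were higher in bin 4 and 1 in bin 2 by edgeR, against 4.41% and 5.26% of all genes. The median difference of the 15 genes, middle minus highest bin, was 0.13, against -0.03 over all genes tested, and middle minus lowest 0.19 against 0.05. The promoter of Hmgcs1 printed above held the sterol regulatory element, and the windows of Idi1, Lss and Srebf2 held no exact match.

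Genes of hepcidin control and iron handling were mostly without a peak in the middle. Tfr2, the transferrin receptor through which hepatocytes sense iron, was 1 of 2 members among 24 tested (8.33%, against 4.38% of all genes). Tfr2 measured 408 CPM in the middle of NEJ638 (372 and 369 at the lowest and highest ends), 402 in NEJ654 (363 and 365) and 375 in NEJ677 (349 and 351). The peak was small and even across sections, at 0.13 ± 0.02 over the lowest and 0.12 ± 0.03 over the highest bin on the log2 scale (SD, n = 3). The smallest difference of Tfr2, 0.093, turned to -0.066 with thinned spots. It fell to 0.061 with interior spots, 0.046 with other score genes and 0.032 with 3 bins in place of 5, and rose to 0.13 without NEJ677. Smad4, the shared mediator of BMP signalling that acts on Hamp, had 12.4, 12.6 and 11.7 CPM in the middle, from 82 to 116 UMIs. Among the other lists, 1 of 16 genes of bile acid synthesis and transport was higher (Nr1h4, the bile acid receptor FXR), 1 of 17 acute phase genes (Apcs) and 1 of 6 sinusoidal endothelial genes (Dnase1l3), and 1 of 10 clock genes was lower (Clock), beside 4.38% higher and 2.17% lower of all genes. None of the tested genes of the pericentral (6), periportal (8), major urinary protein (12), fatty acid synthesis (14), fatty acid oxidation (14), apolipoprotein (12), gluconeogenesis and amino acid breakdown (14), immediate early (8), erythroid (5) and Kupffer cell (8) lists met the rule in either direction. Under TMM or DESeq2 size factors 1 gluconeogenesis gene and 1 further bile acid gene met it and Apcs did not.

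Several collagens and other matrix genes were lower in the middle than at both ends. In NEJ638, however, Col3a1, Col1a1, Col1a2 and Eln peaked in score decile 4, next to the middle bin, at 347, 104, 146 and 102 CPM. Col6a3, Vim, Mmp2, Bgn, Igfbp7 and Timp3 peaked there too, while Adamtsl2, Fbn1, Myl9, Timp2, Serpinh1, Adamts2 and Ccdc80 peaked in decile 1, 2 or 10. In NEJ654 and NEJ677 Col3a1, Col1a1, Col1a2 and Eln peaked in decile 2, 9 or 10. Col3a1 (chr1:45311538-45349706, plus strand), a collagen of vessel walls and portal stroma, measured 302, 296, 220.4, 208 and 297 CPM in NEJ638, 95.9, 84.2, 76.7, 83.3 and 135 CPM in NEJ654, and 74.6, 72.0, 50.5, 54.3 and 89.9 CPM in NEJ677. The ends were 1.25-fold to 1.48-fold (lowest) and 1.35-fold to 1.78-fold (highest) above the middle, or 0.44 ± 0.12 and 0.69 ± 0.22 in size on the log2 scale (SD, n = 3). Col1a2, a chain of type I collagen, had 74.3, 24.4 and 14.3 CPM in the middle, 90.6, 32.6 and 21.7 CPM at the lowest and 98.3, 39.5 and 24.3 CPM at the highest end. In NEJ638 bin 2 of Col1a2, at 110 CPM, was above both ends, and bin 4, at 61.8 CPM, was below the middle. The middle was the lowest bin of Col1a2 in NEJ654 and NEJ677. Eln, the elastin of artery walls, showed the widest gap in NEJ677, with 26.4, 19.3, 4.14, 5.12 and 20.7 CPM along the bins and 29 UMIs in the middle. In NEJ638 and NEJ654 the lowest end was 1.32-fold above the middle for Eln. The lowest level of Eln was in bin 4 in both of these sections, not in the middle. Bin 4 measured 39.95 CPM against 63.02 CPM in the middle of NEJ638. In NEJ654 the margin was small, at 14.04 against 15.61 CPM. Timp3, an inhibitor of matrix proteases, had a smallest difference of -0.39 on the log2 scale, the largest in size among lower members, but from 37 to 108 UMIs per middle bin. It was -0.82 without NEJ638 and -0.014 with 3 bins in place of 5. With spots thinned to 2000 UMIs before scoring, the smallest difference of Col1a2 (0.19) and Timp3 (0.85) turned its sign, and with 3 bins that of Col1a2 (0.079) and Eln (0.076).

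Of 27 matrix and vessel wall genes tested, a list drawn up after the values were seen, 17 (63.0%) were lower, against 2.17% of all genes, and 1 was higher. Under TMM or DESeq2 size factors 14 were lower and 0 higher, without Bgn, Igfbp7 and Timp2 among the lower and Col18a1 as the higher one. Among the 7 tested markers of stellate cells and fibroblasts, the 3 collagen genes Col1a1, Col1a2 and Col3a1 were lower and 0 higher. Of 7 vascular endothelial genes, added after the values were seen, Pecam1, Tie1, Tek and Ednrb were lower (57.1%, against 2.17% of all genes), and Cdh5, Eng and Kdr did not meet the rule. All 15 genes of that list summed to 212, 194 and 257 CPM in the lowest, middle and highest bin of NEJ638, 188, 194 and 241 CPM in NEJ654 and 169.9, 165 and 225 CPM in NEJ677, so in NEJ654 the sum was not lowest in the middle. Pecam1, an adhesion molecule of endothelium, measured 14.2, 12.5 and 12.3 CPM in the middle, 16.4, 14.2 and 15.6 CPM at the lowest and 20.1, 16.8 and 14.5 CPM at the highest end.

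Of the 154 lower members, 17 passed the edgeR test in the spots that the rule did not use, each higher in bin 2 than in bin 4, and the median over all 154 was -0.039 on the log2 scale. Of the 27 matrix genes, a list drawn up after the values were seen, 16 were higher in bin 2, members or not, against 5.26% of all genes. Bin 4 minus bin 2 was -0.37 ± 0.07 (SE) for Col3a1 (edgeR adjusted p = 0.00543), -0.56 ± 0.11 for Col1a2 (edgeR adjusted p = 0.00396) and -1.10 ± 0.13 for Eln (edgeR adjusted p = 8e-05). Of the 311 higher members 13 passed, 10 of them higher in bin 2, among them Mt1, Mt2, Stat2 and Vegfa, and 3 higher in bin 4, among them Hmgcs1 and Znrf1. These genes outside the lists were chosen after their values were seen. The shares of members that passed, 13 of 311 and 17 of 154, stand beside 9.67% of all genes.

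Markers of other cell types moved along the score beside the matrix genes. The 5 bile duct markers summed to 360, 74.4 and 32.7 CPM in the lowest, middle and highest bin of NEJ638, 165, 49.0 and 19.98 CPM in NEJ654 and 187, 37.5 and 19.9 CPM in NEJ677. The 3 smooth muscle markers summed to 51.2, 34.0 and 33.3 CPM in NEJ638, 17.5, 9.7 and 9.5 CPM in NEJ654 and 13.2, 6.7 and 7.1 CPM in NEJ677, and all 3 were under the minimum level. The 8 stellate cell and fibroblast markers summed to 761, 681 and 816 CPM in NEJ638, 419, 392 and 550.0 CPM in NEJ654, and 310.5, 304 and 403 CPM in NEJ677, lowest in the middle of these 3 bins in each section. An inner bin was lower still in NEJ638 (bin 4, 638 CPM) and by a small margin in NEJ654 (bin 2, 389 CPM), but not in NEJ677. The 8 Kupffer cell markers summed to 370.2, 455 and 305 CPM in NEJ638, 725, 688 and 485 CPM in NEJ654 and 645, 605 and 353 CPM in NEJ677, with the lowest bin below the middle in NEJ638 and above it in the others. The part of these cells in the matrix values was not tested.

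**Figure D3:**
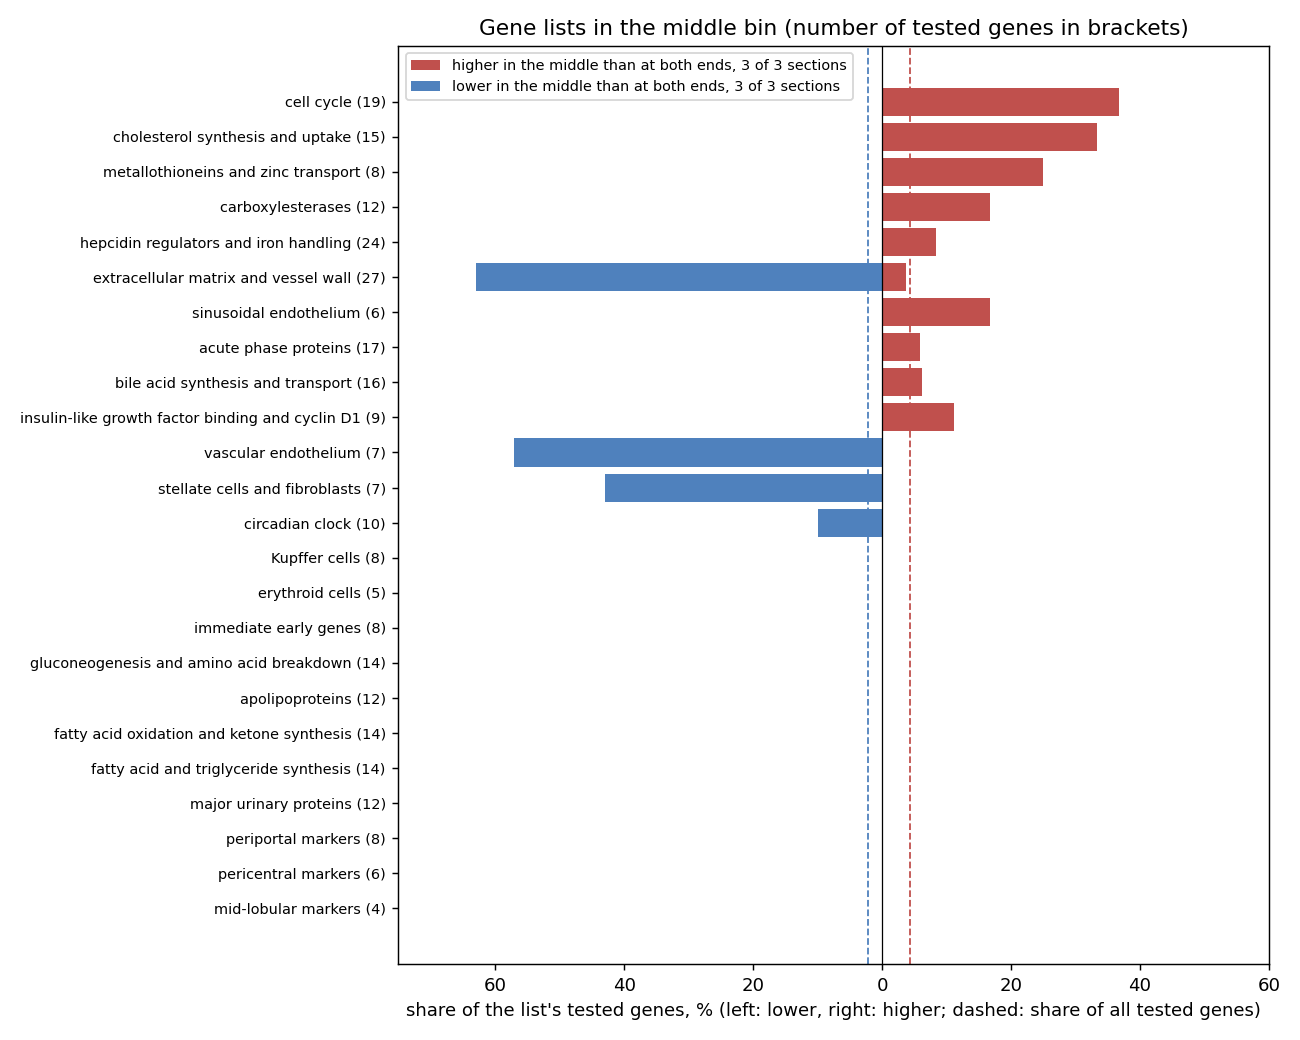
Share of each list's tested genes that were higher (right) or lower (left) in the middle than at both ends in all 3 sections. Bars are percentages of the tested genes, whose number stands in brackets, and dashed lines mark the shares of all 7105 genes, 4.38% higher and 2.17% lower. Cell cycle and cholesterol synthesis genes reach 36.8% and 33.3% higher, and matrix and vascular endothelial genes 63.0% and 57.1% lower; the cell cycle, carboxylesterase, metallothionein, matrix and vascular endothelium lists were drawn up after the values were seen.

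Spot positions were not part of the rule, and they showed middle spots in mixed surroundings. Of the array spots next to a middle spot, 18.9%, 14.6% and 16.6% belonged to the lowest bin and 17.2%, 13.7% and 16.2% to the highest bin in NEJ638, NEJ654 and NEJ677. Spots of the lowest bin had 41.3%, 48.5% and 44.7% of their neighbours in their own bin and 3.28%, 3.45% and 2.10% in the highest. The middle thus bordered on both ends to a similar extent, while the ends rarely bordered on each other. Of the neighbours of a middle spot, 20.2%, 26.9% and 23.3% were in the middle bin itself. Spots placed without order would also border on both ends equally, so the positions cannot place the middle bin between the ends. A middle spot touched spots of both ends in 40.03%, 27.9% and 37.3% of cases and of neither in 8.40%, 30.2% and 23.7%. Its nearest spot of the lowest bin was on average 1.44, 2.01 and 1.92 array steps away and that of the highest 1.49, 1.98 and 1.92 steps. An exact sign-flip test over 3 sections cannot go below a p of 0.25, so none was run.

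**Figure D4:**
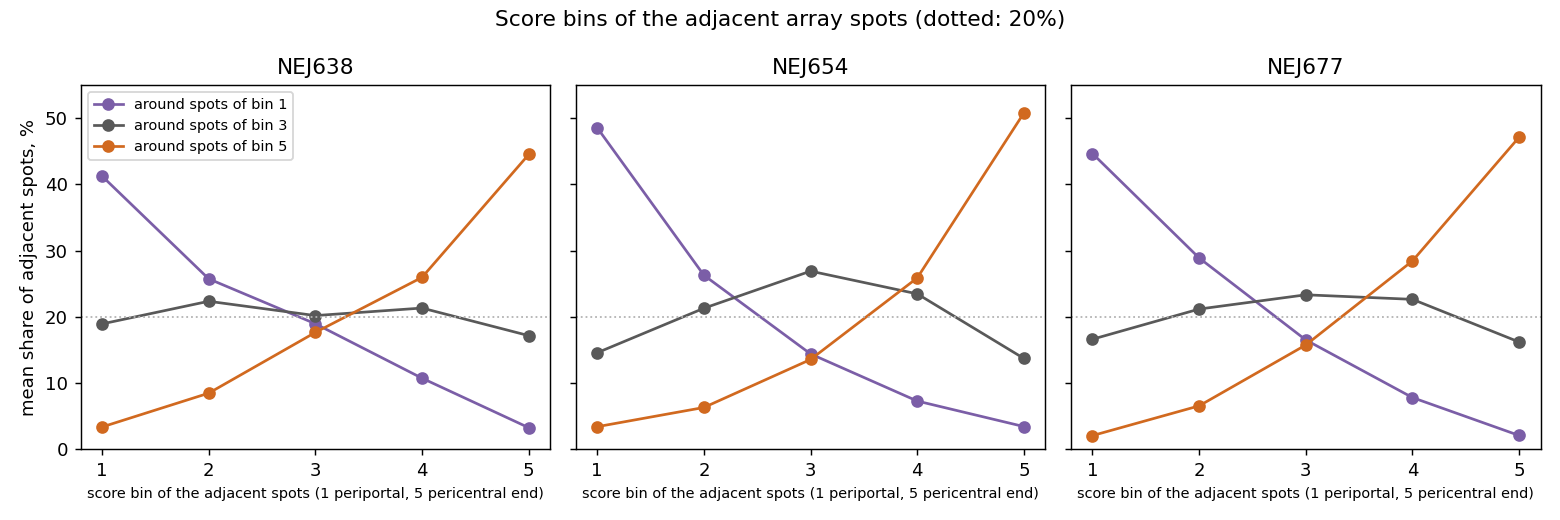
Score bins of the array spots adjacent to spots of the lowest (1), middle (3) and highest (5) bin, in each section. The y axis is the mean share of adjacent spots in percent, and the dotted line marks 20%. Around middle spots the shares run between 13.7% and 26.9%, while spots of either end are most often next to spots of their own bin.

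Depth differed between the compared bins. Median UMIs per spot were lower in the middle (11582.5, 14902.5 and 13686 in NEJ638, NEJ654 and NEJ677) than in the lowest bin (12586.5, 18174.5 and 15674.5) and the highest bin (17124, 21811 and 16878). The score of a middle spot rested on a median of 52, 82.5 and 61 UMIs of the 6 score genes. This median was 53.5, 89 and 67.5 in the lowest bin and 128, 228 and 147 in the highest bin. The mitochondrial share of UMIs was 2.26%, 2.97% and 2.94% in the middle, 3.04%, 3.43% and 3.17% in the lowest bin and 2.31%, 2.71% and 2.27% in the highest bin. With every spot thinned to 2000 UMIs before scoring, 254 genes were higher and 191 lower, of which 32 and 18 were members above. Ces1e and Col3a1 kept their direction in all alternatives run, with a smallest difference of 0.18 to 0.41 for Ces1e and -0.51 to -0.11 for Col3a1.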

How the data were processed

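For every Visium section the authors deposited an unfiltered matrix of UMI counts (genes by spots), with array positions and an in-tissue call for 6 sections. Per the labels, Space Ranger 1.3 and the mm10 build were used, and the counts were not normalised. The 4 NEJ146 sections were not used here. Gene positions and promoter windows come from GENCODE and RefSeq on GRCm38. Spot barcodes mark array positions and are shared between slides by design.

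UMIs were summed over the spots of a score bin (2000 UMIs per spot at least) and given as CPM with exact Poisson 95% intervals. Differences are of log2(CPM + 1), with the SD over 3 sections, and genes needed a mean of 10 CPM. Total UMIs per compared bin ranged from 7006108 to 12859797. Bins 2 and 4 were compared with edgeR 4.0.16 (R 4.3.3, quasi-likelihood test, TMM, section as block since both sums come from the same section, Benjamini-Hochberg over 7105 genes). Tested on simulated data, it recovered 182 of 197 genes changed 1.5-fold, with 10 false calls. The spread between the simulated sums was set by hand and not taken from the data. Most differences given above for this test are smaller than 1.5-fold, so this recovery does not show how many such genes it finds here. DESeq2 1.42.0 gave alternative size factors and an alternative test. Alternatives changed the UMI minimum, thinning, score genes, score pseudocount, number of bins, scaling, level minimum, test and block, or left out a section. Spots are not replicates, and 3 sections limit the precision.

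Genes were named by rule: Hamp, Hamp2, Igfbp2, Mup3 and Ccnd1, the genes of the stricter count, list members that met the rule and the 5 genes most like Hamp. All other named genes, those of the lists added after seeing the values included, were chosen with their values seen. The members, the markers and the lists were chosen with earlier results of these data known. No doublet caller or further spot filter was used. Some genes that met the rule are not reported here.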

Additional observations from a re-analysis of the deposited data

Results flagged for a closer look

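The middle minus lowest bin difference of 3 of the mid-lobular markers ran in opposite directions between sections, which is what drew attention to them. For Hamp it was -0.58 in NEJ638, 0.13 in NEJ654 and -0.021 in NEJ677 on the log2(CPM + 1) scale. For Hamp2 it was -0.32, 0.24 and 0.64 in the same order. For Igfbp2 it was 0.066, -0.084 and 0.34. Each section is 1 animal, so these differences between sections were not tested. Middle minus highest bin differences of the same genes were positive in all 3 sections.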

How the results depend on the processing

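The number higher, 311, became 513 with a minimum of 1 CPM, 91 with 50 CPM, 652 with no minimum, and 589 to 1006 when a section was left out (589 without NEJ638, 646 without NEJ654, 1006 without NEJ677), since fewer sections have to agree. The number lower, 154, became 240 with TMM and 241 with DESeq2 size factors, 326, 50 and 410 with these minimums, and 418 to 516 without a section (516 without NEJ638, 435 without NEJ654, 418 without NEJ677). The stricter count of 3 higher genes became 0 with spots thinned to 2000 UMIs, 1 with 3 bins in place of 5, with TMM and with DESeq2 factors, and 9 to 13 without a section. The stricter count of 2 lower genes became 0 with thinned spots, 5 with the score taken from adjacent spots, 1 with interior spots, with 3 bins, with the narrower middle bin and with 50 CPM, and 4 to 7 without a section. These stricter alternatives were chosen after seeing the data. The smallest difference of Hamp, -0.58, became -1.10 with thinned spots and -0.58 to -0.021 without a section, -0.021 being without NEJ638. With other score genes, 94 of the 311 higher members (30.2%) and 62 of the 154 lower members (40.3%) remained. With the score from adjacent spots, 89 higher (28.6%) and 54 lower members (35.1%) remained, and with thinned spots 32 (10.3%) and 18 (11.7%). Under TMM factors 177 higher (56.9%) and 109 lower members (70.8%) remained.

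Among single genes, the smallest difference reversed with thinned spots for Cyp3a25 (-0.070), Top2a (-0.16), Tfr2 (-0.066), Col1a2 (0.19) and Timp3 (0.85). It reversed with other score genes for Col1a2 (0.087), with the score from adjacent spots for Top2a (-0.091), and with 3 bins for Col1a2 (0.079) and Eln (0.076). The smallest difference kept its sign in each alternative for Ces1e (0.32, range 0.18 to 0.41), Ccnd1 (0.24, range 0.030 with the score from adjacent spots to 0.56 without NEJ654), Mt1 (0.085, range 0.0074 with 3 bins to 0.22 without NEJ638) and Col3a1 (-0.32, range -0.51 with the score from adjacent spots to -0.11 with 3 bins). The cause of these changes was not tested.

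Pairing the sums by section as a block set the edgeR test: 687 genes passed with the block and 0 without it. The 687 became 285 with thinned spots, 423 with 50 CPM, 1161 with no minimum, 291 with DESeq2, and 589 to 888 without a section. Depth limits the low genes: Top2a in NEJ677 rested on 41 UMIs in the middle bin.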
